A study of Drosophila melanogaster with 33 samples.

Results

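The last 4 h of larval life, as the midgut of Drosophila melanogaster passed from late larva to white prepupa, were examined by setting the 3 arrays made at puparium formation (0 h) against the 3 arrays made 4 h before puparium formation (4 h BPF). These are 6 of the 33 arrays in the series, which covers 11 stages with 3 arrays apiece, the first at 18 h BPF and the last at 12 h APF (after puparium formation). Both groups held midguts of the Canton S wild-type strain, staged by hour, with no treatment or transgene. Each array compared amplified RNA of 1 stage, labelled with Cy5, with a pooled midgut reference labelled with Cy3, and the 3 replicates of a stage (a, b and c) were independent samples per the labels. Every value below is a log2 ratio of the stage to this reference, so differences between stages can be read for a gene, while levels of different genes cannot be compared. Of the probes with any value, 10171 had at least 2 values in each of the 2 stages and were tested.

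At the end of the last larval instar a pulse of the steroid hormone 20-hydroxyecdysone starts metamorphosis. The hormone binds a nuclear receptor made of EcR and Ultraspiracle, which switches on early regulatory genes, and these in turn control larger sets of target genes. In the midgut the larval epithelium stops digesting food and is later removed by programmed cell death with features of autophagy, while progenitor cells build the adult gut. The larval gut lumen is served by trypsins, Jonah proteases, amylases, maltases, lipases and lysozymes, and is lined by a chitin-containing peritrophic matrix.

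The 6 arrays were not alike in coverage or in likeness to each other. The 0 h arrays held 7252, 12063 and 10097 values (a, b, c) and the 4 h BPF arrays 7254, 12902 and 13614. Over the 4392 probes with a value on all 6 arrays, 0 h arrays b and c correlated at 0.888, whereas 0 h array a correlated at 0.707 and 0.708 with them and at 0.782 with the 4 h BPF array of the same letter. The 4 h BPF arrays correlated with each other at 0.761 to 0.872. Results are therefore given for all arrays and, for the main counts, also without 0 h array a. Because whole midguts were profiled, fewer cells of a type and less RNA per cell cannot be told apart.

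Of the 10171 probes, 315 passed the test (limma over all 33 arrays, Benjamini-Hochberg adjusted p under 0.05), which is 3.10% of those tested. Of these, 163 were higher at 0 h than at 4 h BPF (1.60%) and 152 were lower (1.49%). Without 0 h array a, 187 were higher and 151 lower among 8235 tested, and 248 of the 284 original calls that could still be tested were called again. The balance of the directions depended on the setting: with the spread taken from the 6 arrays alone 83 were higher and 204 lower, and without 0 h array b 63 were higher and 92 lower. The median change was 1.10 among higher probes and -1.95 among lower ones, against 0.04 for all tested probes. At least 4-fold changes were found for 10 higher and 67 lower probes, and at least 8-fold changes for 1 higher and 22 lower probes. Named genes are represented by 1 probe each, which gave 7271 genes tested and 248 called (3.41%), 122 of them higher (1.68%) and 126 lower (1.73%). Of these genes, 107 carry only a CG number and are named below without a role.

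Among called genes with values on all 6 arrays and no overlap, the largest falls were led by genes with no annotated name here and by digestive and gut-surface genes. CG3819 measured -2.61, -3.19 and -3.70 at 0 h, against -0.71, 1.12 and 1.45 at 4 h BPF (arrays a, b, c). Its change was -3.79 ± 0.40 (SE, adjusted p = 2.08e-06), a 13.8-fold fall. Its chromosomal neighbour CG6839 measured -3.64, -3.25 and -3.53 at 0 h, against -1.41, 0.74 and 0.53 at 4 h BPF, with a change of -3.42 ± 0.49 (adjusted p = 7.02e-05). In both genes 4 h BPF array a was the lowest of its stage, and no array of one stage reached those of the other. CG17826 changed by -3.55, CG4367 by -3.53, CG17633 by -3.26, CG5084 by -3.25 and CG5883 by -3.12, with adjusted p between 2.72e-05 and 0.046. The call of CG17633 was lost when any single one of the 6 arrays was left out (changes from -3.66 to -3.04). In CG5883 the arrays of a stage matched closely, at -2.08, -2.07 and -2.03 at 0 h, against 1.01, 1.06 and 1.12 at 4 h BPF. obst-G, a chitin-binding protein of the Obstructor family, measured -1.05, -1.67 and -1.84 at 0 h, against 1.97, 2.01 and 1.91 at 4 h BPF, a change of -3.48 ± 0.46 (adjusted p = 3.01e-05). Ag5r2, a member of the antigen 5 family of secreted proteins, changed by -3.09 ± 0.44 (adjusted p = 5.77e-05).

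**Figure D1:**
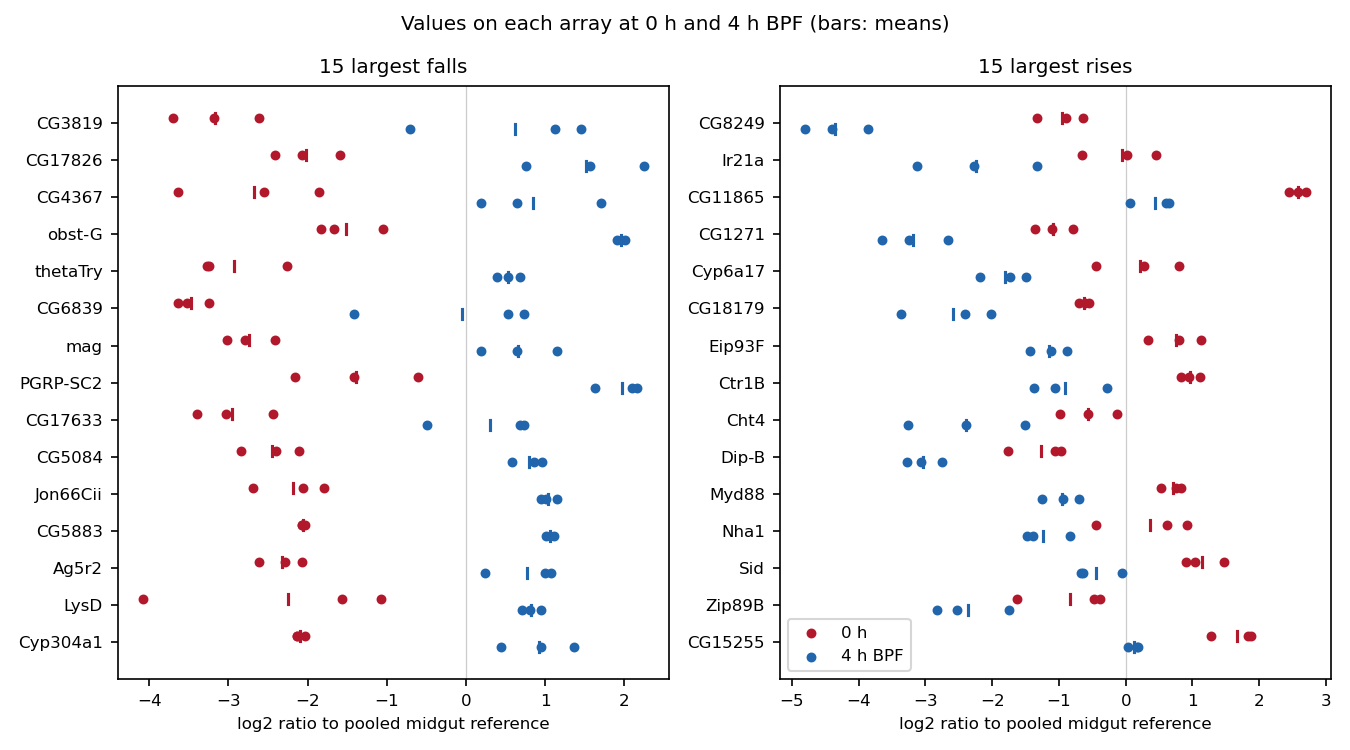
Log2 ratio to the pooled midgut reference (horizontal axis) on each of the 3 arrays at 0 h (red, upper row of each gene) and the 3 arrays at 4 h BPF (blue, lower row) for the 15 largest falls (left) and 15 largest rises (right) among called genes with values on all 6 arrays and no overlap between the stages; bars mark stage means. LysD has 1 array at -4.08 at 0 h, well below the other two, and the largest rise, CG8249, averages -0.96 at 0 h, against -4.36 at 4 h BPF.

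In 2 lists of digestive enzymes, 11 and 9 genes fell and none was called higher. Of 28 tested trypsins, Jonah enzymes and other serine proteases in the list, 11 were lower at 0 h and none higher, against 1.73% lower among all genes tested. Genes with only a CG number were not in this list. The median change of the 28 was -2.10, against 0.04 over all genes, and 27 of the 28 changes were negative. Leaving out 1 array gave 10 of 23 lower without 0 h a, 6 of 16 without 0 h b, 5 of 21 without 0 h c and 7 of 26 without 4 h BPF a, with medians between -2.40 and -1.82, and the 6 arrays alone gave 18 of 28. Over all probes, 151 of 8235, 92 of 5784, 111 of 6196, 116 of 9755 and 204 of 10171 were lower in these settings. thetaTry, a trypsin, measured -3.28, -2.26 and -3.24 at 0 h, against 0.39, 0.69 and 0.53 at 4 h BPF, a change of -3.46 ± 0.50 (adjusted p = 7.02e-05). Jon66Cii, a Jonah protease, measured -2.06, -1.80 and -2.68 at 0 h, against 0.94, 1.01 and 1.15 at 4 h BPF, a change of -3.22 ± 0.51 (adjusted p = 0.000237). iotaTry fell by 3.01 ± 0.50 (adjusted p = 0.000451). Jon25Biii, measured on 2 arrays at 0 h, fell by 3.33 ± 0.61 (adjusted p = 0.00115). Members that did not pass the test included Jon99Fi, at -2.41 ± 0.80 (adjusted p = 0.115), and Jon65Ai, at 0.25 ± 0.73, so the spread between arrays was large for several of them. Several of these genes are near-identical copies, and a probe may read RNA of more than 1 copy.

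Among 19 carbohydrases, lipases and lysozymes, 9 were lower and none higher, against 1.73% lower among all genes. Their median was -1.67, against 0.04 over all genes. mag, the lipase magro, measured -3.02, -2.42 and -2.79 at 0 h, against 0.19, 1.16 and 0.65 at 4 h BPF, a change of -3.41 ± 0.55 (adjusted p = 0.000294). The lysozymes LysB, LysD, LysE, LysP and LysS, gut enzymes that cleave bacterial cell walls, were all called lower, with changes between -3.29 and -2.23. LysD measured -1.57, -1.08 and -4.08 at 0 h, against 0.70, 0.81 and 0.96 at 4 h BPF, so array c was far below the other 0 h arrays. Its change was -3.07 ± 0.49 (adjusted p = 0.000237), and with the spread taken from the 6 arrays alone the adjusted p was 0.0523. LysX, at -0.01 ± 0.21, was not called. The amylases Amy-d (-3.01, adjusted p = 0.208) and Amy-p (-2.84, adjusted p = 0.158) had changes of the same size as the lysozymes but were not called. The count without 0 h array a was 8 of 16, and without 4 h BPF array c it was 4 of 10, where 151 of 8235 and 130 of 6431 probes were lower.

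Of 10 antimicrobial and peptidoglycan recognition genes tested, 3 were lower and none higher, with a median of -0.17, against 1.73% lower among all genes and a median of 0.04. PGRP-SC2, an amidase that degrades bacterial peptidoglycan, measured -0.60, -1.41 and -2.15 at 0 h, against 2.10, 1.63 and 2.17 at 4 h BPF, a change of -3.36 ± 0.41 (adjusted p = 1.37e-05). PGRP-LB, another amidase, measured -0.49, -1.07 and -0.31 at 0 h, against 1.81, 0.79 and 0.75 at 4 h BPF, a change of -1.74 ± 0.42 (adjusted p = 0.0162). Its call was lost without 0 h array b (-1.51, adjusted p = 0.0889) and without 4 h BPF array a (-1.39, adjusted p = 0.13). pirk, an inhibitor of the Imd pathway, changed by -0.88 ± 0.25 (adjusted p = 0.0449), a call that was lost without any one of 5 of the 6 arrays (-0.93 to -0.75), 4 h BPF array b being the exception. DptB, which encodes the antimicrobial peptide Diptericin B, had 3 values at 4 h BPF (0.35, -0.48 and -0.79) and none at 0 h, and was not tested.

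By the same rule, the largest rises were smaller than the largest falls. CG8249 measured -1.33, -0.65 and -0.89 at 0 h, against -4.40, -4.81 and -3.86 at 4 h BPF. Its change of 3.40 ± 0.23 (adjusted p = 9.48e-11), or 10.6-fold, was the only rise of 8-fold or more. CG11865 rose by 2.14 ± 0.52 (adjusted p = 0.0161), CG1271 by 2.10 ± 0.30 (adjusted p = 9.82e-05), CG18179 by 1.97 ± 0.27 (adjusted p = 3.53e-05) and CG15255 by 1.54 ± 0.36 (adjusted p = 0.0122). Ir21a, an ionotropic receptor known from temperature sensing, measured -0.66, 0.02 and 0.46 at 0 h, against -2.28, -3.12 and -1.32 at 4 h BPF, a change of 2.18 ± 0.48 (adjusted p = 0.00721). Some of these calls were lost with 1 array left out, while the changes kept their direction. That of Ir21a was lost without 4 h BPF array b (1.74, adjusted p = 0.0591). That of CG11865 was lost without the b array of either stage (2.08 without 0 h b and 1.96 without 4 h BPF b). For CG15255 it was lost without 0 h array b or 4 h BPF array a (1.45 and 1.49).

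Among the 15 largest rises with values on all 6 arrays and no overlap were Ctr1B, Zip89B and Nha1, which carry metal ions or protons. Ctr1B, a copper importer of the gut, measured 1.11, 0.94 and 0.83 at 0 h, against -0.28, -1.38 and -1.06 at 4 h BPF, a change of 1.87 ± 0.33 (adjusted p = 0.000881). Zip89B, a zinc transporter, rose by 1.54 ± 0.29 (adjusted p = 0.00178), and Nha1, a sodium/proton antiporter, by 1.59 ± 0.28 (adjusted p = 0.000846). With the spread taken from the 6 arrays alone, the calls of Zip89B and Nha1 were lost (adjusted p = 0.0887 and 0.0545). Of 18 sugar, amino acid and ion transporters in the list, Ctr1B and Nhe2 (a sodium/proton exchanger, 1.23 ± 0.31, adjusted p = 0.0364, n = 2 in each stage) were higher, none was lower, and the median was 0.04. Over all genes tested, 1.68% were higher. With the 6 arrays alone the call of Nhe2 was lost (adjusted p = 0.0776). Dip-B, a dipeptidase, measured -1.76, -1.06 and -0.96 at 0 h, against -2.76, -3.28 and -3.06 at 4 h BPF, a change of 1.77 ± 0.23 (adjusted p = 2.23e-05). Sid, a nuclease induced by stress, rose by 1.59 ± 0.39 (adjusted p = 0.0162), a call lost without 0 h array c (1.42) or 4 h BPF array a (1.48). Myd88, the adaptor of the Toll receptors, measured 0.82, 0.76 and 0.53 at 0 h, against -0.70, -1.25 and -0.94 at 4 h BPF, a change of 1.66 ± 0.21 (adjusted p = 1.37e-05), and its other probe was also called, at 1.19.

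The ecdysone regulators measured here were mostly not called, with 1 higher and 1 lower of 16 tested and a median of 0.22. Over all genes tested, 1.68% were higher and 1.73% lower. Eip93F (E93), a transcription factor that directs larval cell death and adult differentiation, measured 0.80, 1.13 and 0.34 at 0 h, against -1.43, -0.88 and -1.12 at 4 h BPF. Its change was 1.90 ± 0.52 (adjusted p = 0.0371), and all 3 arrays at 0 h lay above all 3 at 4 h BPF. The call was lost without any single one of 5 of the 6 arrays (changes between 1.71 and 2.03, adjusted p between 0.0563 and 0.147), 0 h array c being the exception. EcR, the ecdysone receptor, measured -0.65 and -0.55 at 0 h, against 1.83 and 0.47 at 4 h BPF, with no value on either a array. Its change was -1.75 ± 0.36 (adjusted p = 0.00847), and the 2 arrays at 4 h BPF differed from each other by more than those at 0 h. With the spread taken from the 6 arrays alone, the adjusted p was 0.125.

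The receptor partner usp (0.13 ± 0.26), the zinc-finger gene br (0.02 ± 0.25) and the nuclear receptor genes Eip78C (0.27 ± 0.17), Hr3 (0.56 ± 0.40), Hr39 (0.29 ± 0.27), Hr78 (0.29 ± 0.18) and ftz-f1 (-0.14 ± 0.32) did not pass the test. Of these, the stages did not overlap for Hr3 and Hr78, and Hr3 had 2 values in each stage. Among all probes with 6 values, 847 of 4392 (19.3%) did not overlap, so no change is read from this. The genes Eip74EF, Eip75B, Hr4 and Blimp-1 were not analysed here. None of the 13 ecdysone-induced secondary genes tested was called (median 0.03, range -0.36 to 0.57).

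Genes for 2 enzymes that act on the hormone fell. Of 6 ecdysteroid enzymes and transport genes tested, 2 were lower and none higher (median -0.14), against 1.73% lower among all genes. shd, the cytochrome P450 that converts ecdysone to 20-hydroxyecdysone, measured -0.62, 0.17 and -0.43 at 0 h, against 1.10, 2.46 and 2.38 at 4 h BPF, a change of -2.28 ± 0.63 (adjusted p = 0.0379). Its call was lost without any one of 5 of the arrays (adjusted p up to 0.131), 4 h BPF array a being the exception. Eo, ecdysone oxidase, which acts in ecdysteroid inactivation, measured -1.27, -1.54 and -1.62 at 0 h, against 1.33, 1.12 and 0.92 at 4 h BPF, a change of -2.60 ± 0.46 (adjusted p = 0.000846). Cyp18a1, a further enzyme of ecdysteroid inactivation, was not called (-0.47 ± 0.40).

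Most genes of cell death, autophagy and the lysosome were not called, where 1.68% of all genes were higher and 1.73% lower. Of 14 cell death genes, 1 was lower and none higher (median 0.16). It was Damm, a caspase, at -0.91, -1.40 and -0.73 at 0 h, against 0.54, 0.28 and 0.82 at 4 h BPF, a change of -1.56 ± 0.23 (adjusted p = 0.000109), while its other probe changed by -0.71 and was not called. Dronc, the initiator caspase, measured -2.94, -1.26 and -1.12 at 0 h, against -3.04, -1.36 and -1.61 at 4 h BPF, with array a the lowest in both stages (0.23 ± 0.46, adjusted p = 0.983). Dark (-0.45), the adaptor that activates Dronc, the effector caspase gene Dcp-1 (0.21), the Bcl-2 family gene Buffy (0.28) and the inhibitor gene Diap2 (0.05) were not called. None of 23 autophagy genes was called (median 0.15), and Atg1, the kinase that starts autophagy, measured -0.50, 0.27 and -0.08 at 0 h, against -0.04, 1.34 and 0.95 at 4 h BPF (-0.85 ± 0.29, adjusted p = 0.128). Without 4 h BPF array a it was called lower, at -1.24 (adjusted p = 0.0124). Of 16 lysosome genes, LManI, a lysosomal mannosidase, was higher (1.14 ± 0.28, adjusted p = 0.0162), none was lower, and the median was 0.02. The call of LManI was lost without 0 h array a (0.93, adjusted p = 0.0877) or 4 h BPF array b (0.90, adjusted p = 0.11). With the replicate letter as a block in the fit, which called 3.61% of all probes, 2 lysosome genes were higher and 1 lower. The genes rpr, hid and Atg8a were not analysed here.

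**Figure D2:**
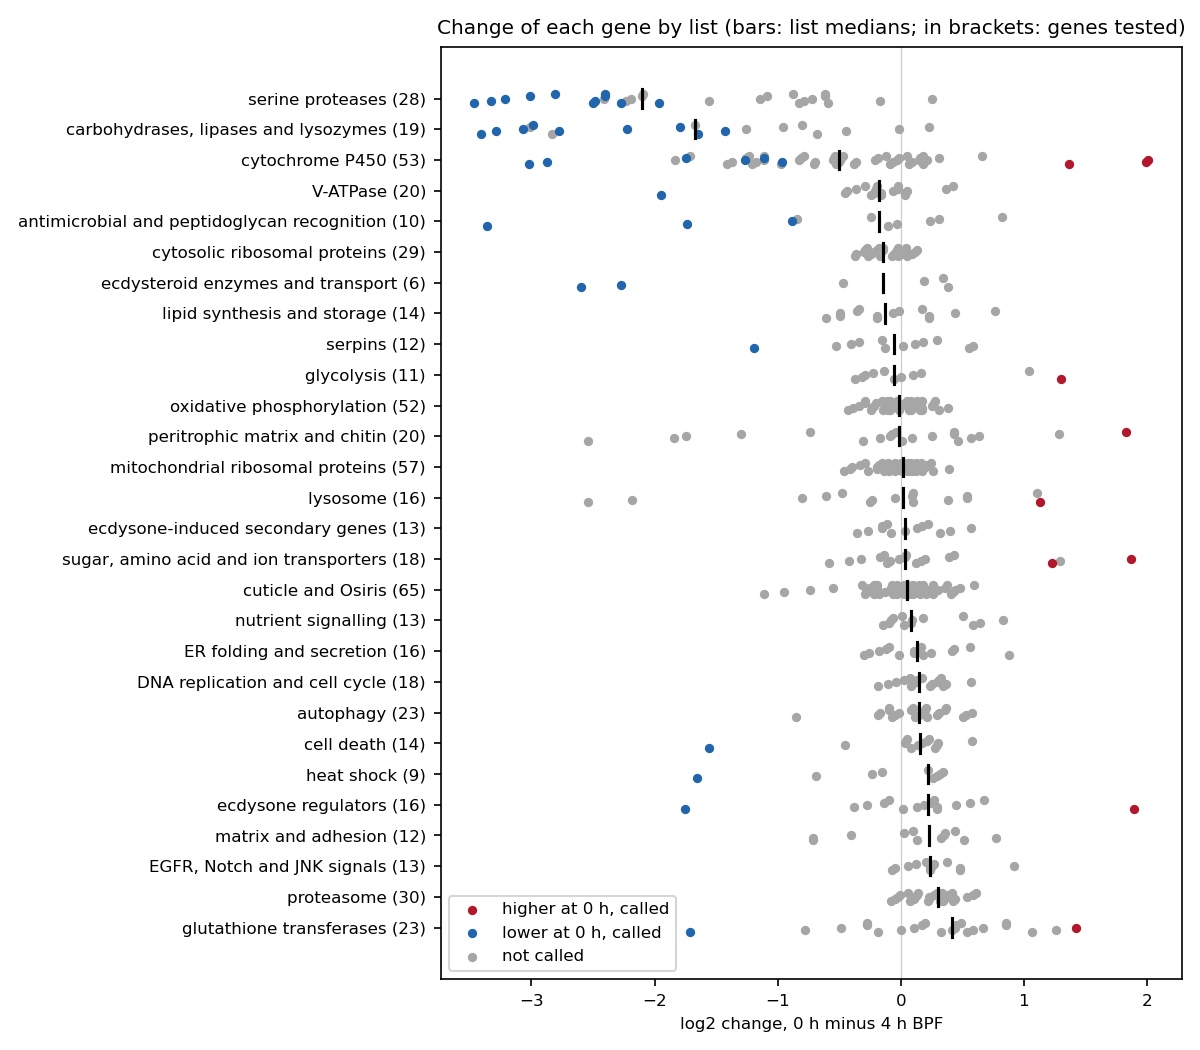
Log2 change, 0 h minus 4 h BPF (horizontal axis), of every tested gene in 28 lists, with 1 point per gene; red points passed the test as higher at 0 h, blue points as lower, grey points did not pass, black bars are list medians and the number of genes tested stands in brackets. Serine proteases (median -2.10) and carbohydrases, lipases and lysozymes (median -1.67) lie at the top and to the left of 0, and ribosomal proteins and oxidative phosphorylation lie in a narrow band around 0.

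Of 53 cytochrome P450 genes, enzymes of hormone and foreign compound metabolism, 3 were higher and 6 lower (median -0.50), against 1.68% higher and 1.73% lower among all genes. Cyp6a17 measured -0.45, 0.28 and 0.80 at 0 h, against -1.74, -2.18 and -1.49 at 4 h BPF (2.01 ± 0.35, adjusted p = 0.000654), and the neighbouring genes Cyp9b1 and Cyp9b2 rose by 1.37 and 1.99. Cyp304a1 had the largest fall of the family, at -2.03, -2.13 and -2.13 at 0 h, against 0.45, 1.37 and 0.95 at 4 h BPF (-3.02 ± 0.37, adjusted p = 1.37e-05). Cyp6w1 changed by -2.88, Cyp4ac3 by -1.75 and Cyp9f2 by -1.26 (adjusted p = 0.0355). With the replicate letter as a block, the change of Cyp9f2 was -1.21 and its adjusted p was 0.0504. The calls of Cyp6w1 without 0 h array b (-2.45), of Cyp4ac3 without 0 h array c (-1.56) or 4 h BPF array a (-1.51), and of Cyp9f2 without 4 h BPF array a (-1.36) or b (-1.11) were lost. Without 0 h array b, 0 h array c or 4 h BPF array a, 2 of the P450 genes tested were lower in each case. Over all probes, 92 of 5784, 111 of 6196 and 116 of 9755 were lower in these settings, and no direction of the family is read from such counts. Of 23 glutathione transferases, GstD4 was higher (1.42 ± 0.33, adjusted p = 0.0118), GstT4 was lower (-1.71 ± 0.36, adjusted p = 0.0057), and the median was 0.42, and no direction of the group is read from 1 gene each way. The call of GstD4 was lost without the a array of either stage (1.23 without 0 h a and 1.31 without 4 h BPF a).

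Genes of the peritrophic matrix and chitin gave 1 call in 20, against 1.68% higher and 1.73% lower among all genes. It was the chitinase Cht4, at -0.98, -0.57 and -0.13 at 0 h, against -2.39, -3.27 and -1.50 at 4 h BPF (1.83 ± 0.42, adjusted p = 0.0107). Its call was lost without 0 h array c (1.61, adjusted p = 0.0562) or 4 h BPF array b (1.39, adjusted p = 0.089). The largest fall in the list was -2.54 and was not called, and the median was -0.015. Peritrophin-15a (-1.30 ± 0.58) and Peritrophin-15b (-0.74 ± 0.36), components of the peritrophic matrix, were not called. With the replicate letter as a block, 1 gene of this list was also lower. Genes with only a CG number were not in this list, so its count does not cover them. Outside this list, obst-G, described above, and obst-F (-2.61 ± 0.57, adjusted p = 0.00693) were called lower. So were their chromosomal neighbours CG5883, CG7252 and CG17826 (with obst-G) and CG7298, CG7290 and CG6996 (with obst-F), whose roles were not examined.

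The remaining lists had few or no calls, where 1.68% of all genes were higher and 1.73% lower. Of 20 genes of the V-ATPase, the proton pump, only the representative probe of Vha100-4 was called (-1.95 ± 0.42, adjusted p = 0.00721), and its other probe changed by -0.31 and was not called. Of 11 glycolysis genes Tpi was higher (1.30 ± 0.32, adjusted p = 0.0329, n = 2 in each stage), of 9 heat shock genes l(2)efl was lower (-1.65 ± 0.40, adjusted p = 0.0198), and of 12 serpins Spn42Dc was lower (-1.19 ± 0.29, adjusted p = 0.0158). Without 4 h BPF array b the calls of l(2)efl (-1.53) and Spn42Dc (-1.08) were lost. No gene was called among 30 of the proteasome (median 0.31, 26 positive), 52 of oxidative phosphorylation (-0.02), 29 cytosolic (-0.14) and 57 mitochondrial ribosomal proteins (0.02), 18 of DNA replication and cell cycle (0.15), 16 of ER folding and secretion (0.13), 14 of lipid synthesis and storage (-0.13), 13 of nutrient signalling (0.08), 12 of matrix and adhesion (0.23), 13 of EGFR, Notch and JNK signals (0.24) and 65 of cuticle and Osiris genes (0.05), where 1 was lower with the replicate letter as a block. The tests could miss small changes: in data simulated for this comparison with independent errors between arrays, 53.7% of changes of 1 and 7.46% of changes of 0.5 were recovered.

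Markers of midgut cell types and of other tissues were examined the same way. None was called of 5 midgut epithelium, 4 midgut progenitor, 8 enteroendocrine, 9 visceral muscle, 3 salivary gland, 4 haemocyte and 4 Malpighian tubule markers, with list medians between -0.19 and 0.27. As ratios to a midgut pool, these values do not show whether a marker was present or absent. The largest changes in these lists were -1.11 for Alp4 (midgut epithelium), 0.40 for zfh2 (progenitors), 0.51 for sNPF (enteroendocrine cells), -0.80 for Mlc2 (visceral muscle), 0.26 for fkh (salivary gland), -0.71 for Col4a1 (haemocytes) and -0.36 for NaPi-T (Malpighian tubule).

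The fat body markers stood apart in size but were not called. Fbp2, Fbp1 and Lsp2, which encode proteins made in quantity by the fat body, changed by 1.05, 1.499 and 1.73 (adjusted p = 0.611, 0.255 and 0.34). Lsp2 measured 1.63, 1.14 and 0.71 at 0 h, against -0.38, -2.76 and 1.42 at 4 h BPF. The mean of the 3 markers was 1.32, 0.95 and 0.89 at 0 h, against -0.53, -1.98 and 1.39 at 4 h BPF, so 4 h BPF array c lay above all 0 h arrays. Without that array 2 of the 3 were called higher, with Lsp2 at 2.73 (adjusted p = 0.0332), where 180 of 6431 probes were higher. The part of fat body RNA in the rises described above was not tested.

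The stages on either side, whose arrays are not in this comparison, were read for the same probes. Between 2 h APF and 18 h BPF, 2488 of 11476 probes differed (21.7%), 1593 of them higher (13.9%) and 895 lower (7.80%). Of the 158 probes higher at 0 h than at 4 h BPF that were tested there, 130 (82.3%) were also higher at 2 h APF and 2 were lower, with a median change of 1.56. Of the 151 lower probes, 138 (91.4%) were also lower at 2 h APF and none was higher, with a median of -3.67, against 0.13 for all probes tested.

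Within the 9 stages other than 0 h and 4 h BPF, the probes that fell had their peak early. Among the 149 lower probes measured in all 9, 122 (81.9%) were highest at 18 h BPF, against 15.3% of 7257 probes. Their lowest stage was 6 h APF for 44 and 2 h APF for 33. Among the 149 higher probes, 104 (69.8%) were lowest at 18 h BPF, against 27.2%, and 74 (49.7%) were highest at 2 h APF, against 21.7%. The median of the lower probes ran from 1.91 at 18 h BPF through 1.05 at 4 h BPF and -1.03 at 0 h to -1.69 at 2 h APF and -0.79 at 12 h APF. The median of the higher probes ran from -1.04 at 18 h BPF through -0.58 at 4 h BPF to 0.49 at both 0 h and 2 h APF, and was -0.25 at 12 h APF.

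**Figure D3:**
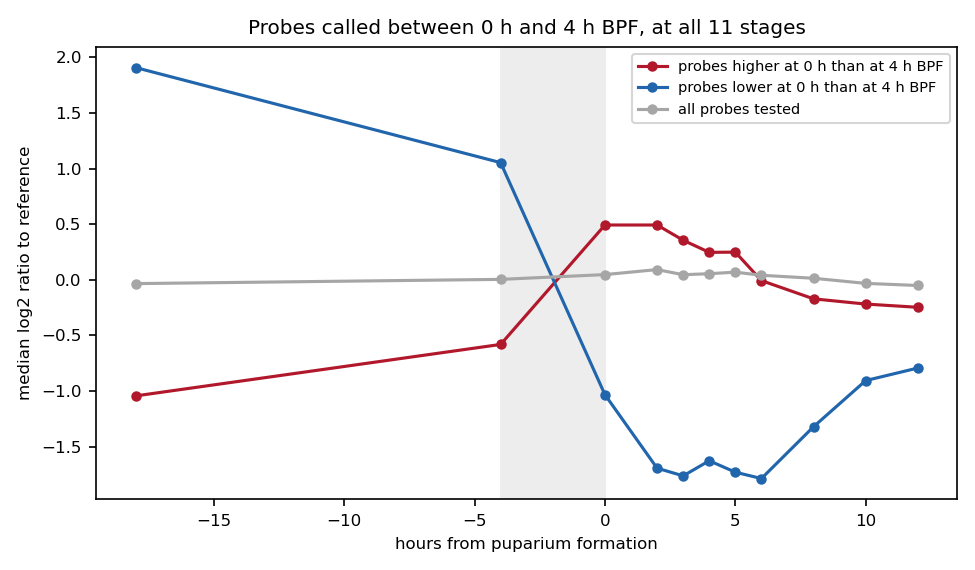
Median log2 ratio to the reference (vertical axis) at each of 11 stages (horizontal axis, hours from puparium formation) of the probes higher at 0 h than at 4 h BPF (red), the probes lower at 0 h (blue) and all tested probes (grey); the shaded band is the 4 h interval that chose the first 2 sets. The lower probes fall to -1.03 at 0 h and stay below -0.7 through 12 h APF, while the higher probes level off at 0.49 and return below 0 by 6 h APF.

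The steps before and after share arrays with this one, so their values are given side by side for single genes only. From 18 h BPF to 4 h BPF 751 of 12180 probes differed (6.17%), and from 0 h to 2 h APF 608 of 9695 (6.27%). thetaTry changed by -2.14 before, -3.46 in the 4 h interval and -1.39 after it, the last not called. PGRP-SC2 changed by 0.10 (not called), -3.36 and -1.95. shd changed by -0.25 (not called), -2.28 and -2.52, and Eo by -0.53 (not called), -2.60 and -2.19. CG3819 changed by -2.53, -3.79 and -0.46, the last not called. CG8249 changed by -0.85, 3.40 and 1.76, all called. EcR changed by 1.45 (adjusted p = 0.0192), -1.75 and 0.01, so that 4 h BPF was its highest stage on average. Buffy, not called in the 4 h interval, rose by 1.70 before it and fell by 1.24 after it. Dronc, also not called, rose by 2.41 after 0 h (adjusted p = 0.00123). Of the 28 serine proteases, 3 were lower from 18 h to 4 h BPF (3.08% of all genes were), 11 from 4 h BPF to 0 h and 11 from 0 h to 2 h APF (2.91% of all genes). Of the proteasome genes, 14 of 33 were higher in the first of these steps (3.48% of all genes), none in the 4 h interval, and 4 of 28 were lower in the last. Of the autophagy genes, 7 of 27 were higher in the first step.

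A few genes stood apart at 0 h from the mean of the stages on either side. A difference from only 1 of those stages can carry this contrast. Against the mean of 4 h BPF and 2 h APF, 90 of 9412 probes stood apart (0.956%), 55 above (0.584%) and 35 below (0.372%). NK7.1, a homeodomain transcription factor, measured 1.65, 1.24 and 0.96 at 0 h, against means of -0.04 ± 0.43 at 4 h BPF and -0.49 ± 0.11 at 2 h APF (SD, n = 3), an excess of 1.55 ± 0.23 (SE, adjusted p = 0.000192). Its other stage means lay between -0.58 and 0.21. GstE3, a glutathione transferase, averaged -2.16 at 18 h BPF, 0.95 at 4 h BPF, 1.81 at 0 h and -0.79 at 2 h APF (2 arrays), an excess of 1.73 ± 0.27 (adjusted p = 0.000998). CG8745, CG9826, CG6836 and CG5171 had excesses of 2.15, 1.89, 1.69 and 1.68. Of the genes named here, NK7.1 and CG6836 were also called higher at 0 h than at 4 h BPF. GstE3, CG8745, CG9826 and CG5171 were not called in that comparison (adjusted p = 0.159, 0.818, 0.307 and 0.589).

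The lowest points at 0 h included Cyp304a1, which averaged 1.32 at 18 h BPF, 0.92 at 4 h BPF, -2.10 at 0 h and -0.57 at 2 h APF, a deficit of -2.27 ± 0.32 (adjusted p = 0.000192). Galphaf, a G protein alpha subunit, averaged -1.63, -2.31, -3.15 and 0.03 at the same 4 stages, a deficit of -2.01 ± 0.26 (adjusted p = 5.68e-05). tobi, an alpha-glucosidase, averaged -2.06, -3.71, -4.15 and -1.04, a deficit of -1.77 ± 0.27 (adjusted p = 0.000508). CG15096, CG7778 and CG17065 had deficits of -1.99, -1.74 and -1.72. Of these 6 genes Cyp304a1 and CG17065 were also called between 0 h and 4 h BPF. Without 0 h array b 36 probes stood apart, among 5703 tested, and without 2 h APF array b 44 did, among 6632.

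**Figure D4:**
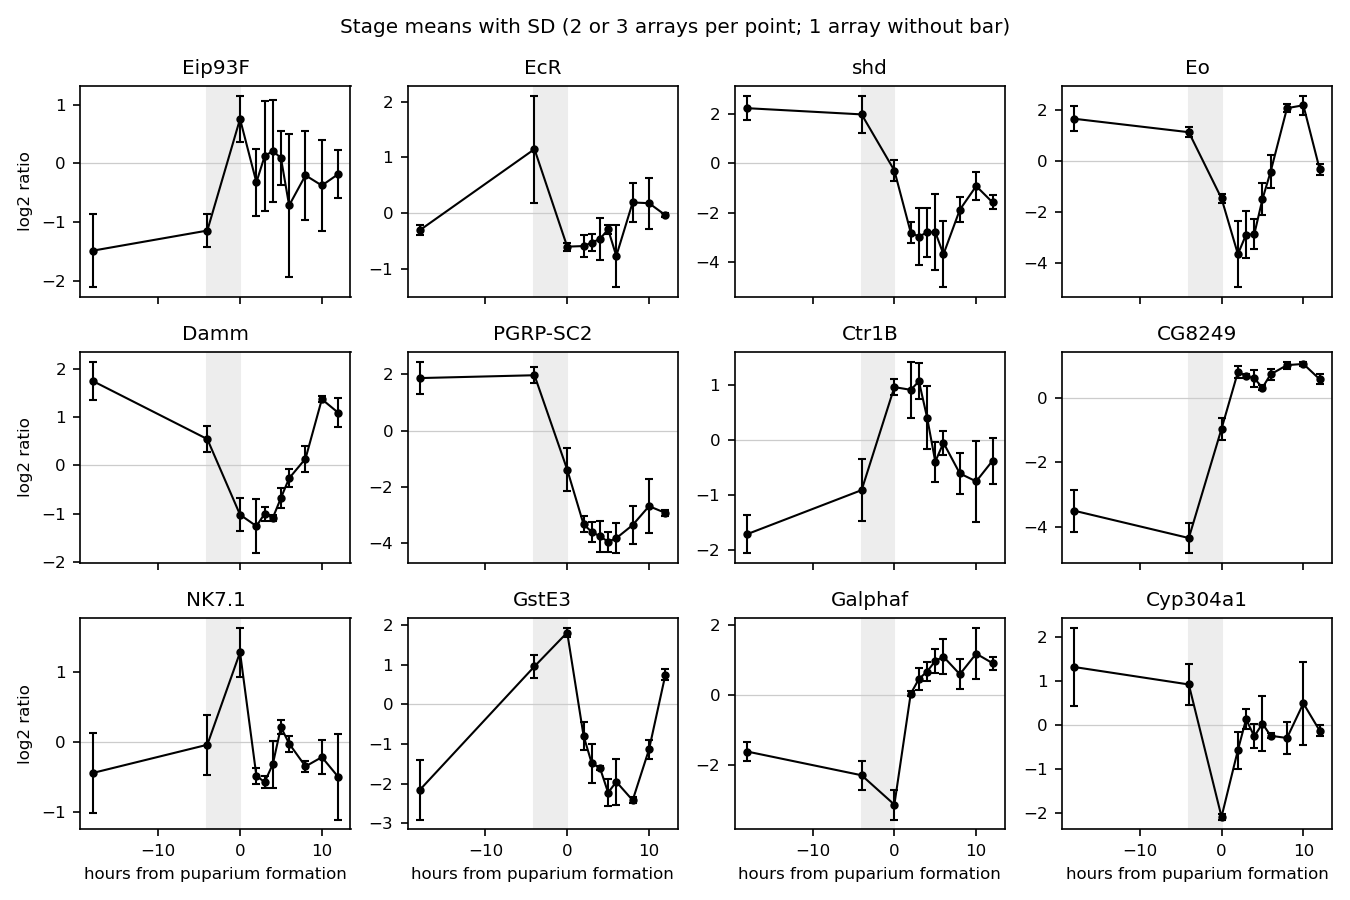
Mean log2 ratio to the reference (vertical axes) with SD bars at 11 stages (horizontal axes, hours from puparium formation) for 12 genes, from 2 or 3 arrays per stage, with the 4 h interval shaded. EcR is highest at 4 h BPF, NK7.1 and GstE3 are highest at 0 h, Cyp304a1 and Galphaf are lowest at 0 h, and Eo returns to 2.07 at 8 h APF.

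The called genes were also placed along the chromosomes by the gene order of RefSeq. Of 7260 placed and tested genes, 126 were lower, and 42 of them (33.3%) lay next to another lower gene in that order, in 16 runs. Of the 122 higher genes, 10 (8.20%) lay next to another higher gene, in 5 runs. Over all genes tested 1.73% were lower and 1.68% higher, and the share of neighbours among genes placed at random was not tested. The longest run, on 3L, held LysB, LysD, LysE, LysP, LysS, CG33966 and CG9192. Runs of 4 on the same arm held CG5883, CG7252, CG17826 and obst-G, and obst-F, CG7298, CG7290 and CG6996. A run of 3 on 2R held thetaTry, alphaTry and epsilonTry. Among the rises, Cyp9b1 lay next to Cyp9b2, and CG18179 next to CG8329, whose rise of 2.98 ± 0.70 (adjusted p = 0.0128), from 2 arrays at 0 h and 3 at 4 h BPF, was the second largest of all. Chosen after its values were seen, it was not called without 4 h BPF array a (2.68, adjusted p = 0.0627). Where neighbours are near-identical copies, such as the lysozymes, 1 RNA may be read by several probes, and this was not tested.

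No probe had 3 values at 0 h and none at 4 h BPF, and 22 had none at 0 h and 3 at 4 h BPF. Besides DptB, those with a gene name and the most values elsewhere were CG13053, CG4239, CG13055, CG10887, CG9727, halo and Ekar. Their values at 4 h BPF lay between -0.30 and 0.58, and a missing value is not a level.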

How the data were processed

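The authors deposited 1 log2 ratio per probe and array for 33 two-colour arrays. How they were background-corrected and normalized is not given in the sources used here, and intensities were not used. The base and sign of the ratios were inferred: averaged over the 10 stages pooled in the reference, ratios to it had an SD of 0.117 (log2 scale, 7257 probes) read as base 2 and stage over reference, against 0.509 with the sign turned and at least 0.204 with other bases. Array medians spanned 0.148, less than the 0.2 at which they would have been re-centred. Precision is limited by the number of arrays.

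Probes (14064 with a value, of 20000) were named through the platform annotation and RefSeq (Release 6 plus ISO1 MT, for names and gene order only): 10827 had 1 gene (9904 genes), 227 several and 3009 none. The probe with most values stood for a gene with several. Stages were compared with limma 3.58.1 in R 4.3.3, 1 mean per stage over 33 arrays, with at least 2 values per stage and Benjamini-Hochberg adjusted p-values (threshold 0.05). On simulated data for 0 h against 4 h BPF (10171 probes), 89.4%, 53.7% and 7.46% of changes of 2, 1 and 0.5 were recovered, with 3 false calls. The simulated errors were independent between arrays, unlike those of same-letter arrays described below, so these rates may not hold for the measured data. Figures used Python 3.11.15 and Matplotlib 3.10.9.

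Same-letter arrays of both stages deviated together (correlations of 0.696, 0.556 and 0.484 for a, b and c over 4392 probes). The labels do not say what arrays of a letter share. The main fit leaves this likeness out, and a fit with the letter as a block is an alternative. The others were centring, quantile normalization, both missing-value filters, the 6 arrays alone, a robust prior, gene means and each array left out. Named were the 15 largest rises and falls among called genes with values on all 6 arrays and no overlap between stages, up to 4 called genes per list and direction, fixed regulators, the largest change of each marker list, 6 peaks and 6 troughs at 0 h, and genes measured in 1 stage only. Other genes are said to be examples. The members and lists were chosen with earlier results of these data known. The fixed regulator Thor, promoter sequences and their motifs were not used here.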

Additional observations from a re-analysis of the deposited data

How the results depend on the processing

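Of the 315 probes called, 309 were called again with the replicate letter as a block, which called 367 (189 higher, 178 lower). Among named genes the block ended the call of Cyp9f2 only and changed no other call. The block with the 6 arrays alone called 583 (266 higher, 317 lower), of which 274 were among the original calls, and the 6 arrays without it called 83 higher and 204 lower, so 28.9% were higher, against 51.7%, and 205 calls were shared. Centring, quantile normalization, both missing-value filters and a robust prior gave 291 to 329 calls. Leaving out 1 array gave 155 (0 h b), 207 (0 h c), 187 (4 h BPF b) and up to 338 calls (0 h a), with 63 to 187 higher and 92 to 151 lower; 4 h BPF array a also moved the higher calls by over 1.5 times, to 94, and these settings tested fewer probes. For the contrast of 0 h with the mean of 4 h BPF and 2 h APF, the count was 95 to 128 by setting. It was 36 (0 h b) to 120 (4 h BPF a) with 1 array left out. Of the 56 named genes called, 29 kept their call in every setting that tested them and none turned direction. Under quantile normalization Eip93F changed by 1.87 (adjusted p = 0.135) and shd by -2.004 (adjusted p = 0.0591). With 6 arrays alone 12 named genes lost their call: Cht4, Nha1, Zip89B, LysB, LysD, LysE, EcR, LManI, Tpi, pirk, Nhe2 and CG17065. The cause of these differences was not tested. Between 2 h APF and 18 h BPF 2315 probes were called after centring and 2250 after quantile normalization.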

Other observations

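Most called genes belonged to no list: 112 of the 122 higher and 89 of the 126 lower. Those described here were chosen after their values were seen, as examples with a known role. Among the higher genes were several of cell signalling. raw, a regulator of JNK signalling in the embryo, measured -0.05, 1.02 and 0.75 at 0 h, against -1.29, -0.87 and -0.63 at 4 h BPF, a change of 1.499 ± 0.25 (limma, adjusted p = 0.000464). Dad, an inhibitor of Dpp signalling, measured -0.17, 0.90 and 0.43 at 0 h, against -0.51, -0.95 and -0.45 at 4 h BPF (1.02 ± 0.22, adjusted p = 0.00721). daw, an Activin-type ligand, measured 1.14, 1.21 and 1.37 at 0 h, against 0.18, 0.38 and 0.00 at 4 h BPF (1.05 ± 0.26, adjusted p = 0.0162). mats, a cofactor of the Hippo pathway kinases, rose by 0.95 ± 0.19 (adjusted p = 0.0026), and hh, the Hedgehog ligand, by 0.67 ± 0.17 (adjusted p = 0.0232). dos, an adaptor of receptor tyrosine kinases, rose by 1.28 ± 0.31 (adjusted p = 0.0134) in 1 probe, while its other probe changed by 0.27 and was not called. ATP7, the copper-exporting ATPase, rose by 0.96 ± 0.24 (adjusted p = 0.0168). With 1 array left out, raw and mats kept their calls wherever tested. Under quantile normalization the calls of mats (0.92, adjusted p = 0.0864), daw (adjusted p = 0.0653), hh (adjusted p = 0.14) and ATP7 (adjusted p = 0.325) were lost, and with the 6 arrays alone those of Dad, hh, dos and ATP7 were lost (adjusted p between 0.0528 and 0.255). The call of Dad was lost without 0 h b (0.76) or 4 h BPF b (0.86), that of daw without 0 h c (0.99), 4 h BPF a (1.05) or 4 h BPF c (0.96), that of dos without 0 h b (1.07), 0 h c (1.07) or 4 h BPF a (0.87), and that of ATP7 without 0 h b (0.80), 0 h c (0.91) or 4 h BPF a (0.97). The call of hh was lost without 0 h b, 0 h c, 4 h BPF a or 4 h BPF b (0.56 to 0.66).

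Among the lower genes were several of metabolism and lumen transport. Npc2c and Npc2d, neighbouring genes of the Niemann-Pick type C2 family of sterol-binding proteins, fell by 2.27 ± 0.46 and 2.51 ± 0.55. Npc2c measured -0.87, -0.91 and -1.75 at 0 h, against 1.74, 0.58 and 0.96 at 4 h BPF (adjusted p = 0.00305). sug, a sugar-responsive transcription factor, measured -2.07, -3.16 and -2.58 at 0 h, against -1.44, -0.85 and -0.98 at 4 h BPF (-1.51 ± 0.28, adjusted p = 0.00112). Ass, the urea cycle enzyme argininosuccinate synthetase, fell by 1.83 ± 0.24 (adjusted p = 3.26e-05). CAH7, a carbonic anhydrase, fell by 1.97 ± 0.29 (adjusted p = 9.13e-05), and Alp6, an alkaline phosphatase, by 2.04 ± 0.37 (adjusted p = 0.00104). Mdr49 and Mdr50, multidrug transporters, fell by 1.08 and 1.04 (adjusted p = 0.0458 and 0.0132). Dif, a transcription factor of the Toll pathway, measured 0.78, 0.20 and -0.08 at 0 h, against 1.42, 1.46 and 0.97 at 4 h BPF (-0.98 ± 0.24, adjusted p = 0.0168), and its other probe, at -0.74, was not called. With the 6 arrays alone the calls of Mdr49, Mdr50 and Dif were lost (adjusted p between 0.0542 and 0.0967), and with no filter on missing values that of Mdr49 (adjusted p = 0.0602). With 1 array left out, Npc2c, Npc2d, sug, Ass, CAH7 and Alp6 kept their calls wherever tested. The call of Mdr49 was lost without any one of 5 arrays (-1.20 to -0.87), 0 h a being the exception, that of Mdr50 without 0 h b, 0 h c or 4 h BPF a (-0.95 to -0.82), and that of Dif without any one of 4 arrays (-0.93 to -0.79), 0 h a and 4 h BPF c being the exceptions.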
